A study of Mus musculus with 6 samples.

Results

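Cells release ATP and NAD when they are stressed or stimulated, and proteins at the lymphocyte surface sense these molecules and break them down. ATP leaves through channels such as pannexin 1 and opens P2X cation channels, of which P2X7 needs the highest ATP and can lead to membrane pores and death of T cells. CD39 degrades ATP to AMP, CD73 turns AMP into adenosine, and adenosine acts through receptors that raise cAMP and restrain T cells. In the mouse, ADP-ribosylation that consumes extracellular NAD is another way to gate P2X7 on T cells.

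The genes of this system that were examined are 10 by name, and the annotation used here paired 6 of them with a probe set, 1 each: P2rx7, P2rx4, P2ry10, Entpd1 (CD39), Nt5e (CD73) and Panx1. Adora2a, Adora2b, Cd38 and Art2b had no probe set named there and were not analysed here. The NAD arm is thus not covered by a measured gene of the list, and the adenosine arm only by its enzymes. The 10 genes were listed with earlier results of the same Runx3-/- and WT arrays known, so that their levels and differences are given as a description, without p-values. All 6 measured genes reached the array median in all 6 arrays and were among the 9925 genes tested.

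The arrays (Affymetrix mouse Gene 1.0 ST, which read whole transcripts) profiled resting CD8+ T cells (CD8-TC) from the spleens of male ICR mice, an outbred stock, aged 6 weeks. A group comprised 3 Runx3-/- mice, which lack the transcription factor Runx3 in all tissues, or 3 WT mice, with 1 mouse and 1 array per sample. Per the labels and methods, CD8-TC were taken on anti-CD8 magnetic beads, and Runx3-/- cells were then also sorted by FACS to remove CD8+ dendritic cells carrying CD11c, although elsewhere the labels have every sample sorted. If only Runx3-/- cells were sorted, sorting and genotype cannot be told apart.

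Signals are on the log2 scale, where 1 unit is a doubling, and the array medians lay between 3.45 and 3.53. Cd8a averaged 11.06 in Runx3-/- and 11.10 in WT cells, and Cd3e averaged 9.39 and 9.44, so that the labelled cell type was present in both genotypes. Runx3 itself gave 0.16 ± 0.16 (SE, limma adjusted p = 0.559), turning to -0.012 without Runx3-/- replicate 3. The sources do not place its probe set inside or outside the deletion, so that this signal does not check the genotype. Of all tested genes, 11.6% passed an adjusted p of 0.05 in limma (559 higher and 596 lower in Runx3-/- cells), and 33.6% had groups that did not overlap. The median difference over all tested genes was 0.0062.

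P2rx7 had the largest difference of the 6 genes and stood beside P2rx4, its neighbour on mouse chromosome 5, which was not called. The sequences before the starts of P2rx7, P2rx4 and Panx1 are shown because these genes carry that contrast and the only other call in the list. Each is the stretch of 250 bases that ends just before an annotated RefSeq start (build GRCm38.p6), written along the gene's own strand. Capitals mark a RUNX hexamer on either strand, which is TGTGGT or its variant TGTGGC, or with C at the third base TGCGGT or its variant TGCGGC, so that a hexamer of the opposite strand appears as its reverse complement.
P2rx7, upstream start, chr5:122643677-122643926, plus strand: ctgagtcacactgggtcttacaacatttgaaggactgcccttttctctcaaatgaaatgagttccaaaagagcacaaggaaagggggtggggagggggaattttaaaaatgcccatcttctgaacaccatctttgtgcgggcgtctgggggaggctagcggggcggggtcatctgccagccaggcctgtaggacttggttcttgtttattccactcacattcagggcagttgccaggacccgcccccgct
P2rx7, downstream start, chr5:122650133-122650382, plus strand: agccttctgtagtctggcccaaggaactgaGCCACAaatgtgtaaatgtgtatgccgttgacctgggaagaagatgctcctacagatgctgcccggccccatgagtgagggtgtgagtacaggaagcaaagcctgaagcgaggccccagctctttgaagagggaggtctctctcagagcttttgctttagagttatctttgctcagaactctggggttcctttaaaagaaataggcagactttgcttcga
P2rx4, chr5:122707294-122707543, plus strand: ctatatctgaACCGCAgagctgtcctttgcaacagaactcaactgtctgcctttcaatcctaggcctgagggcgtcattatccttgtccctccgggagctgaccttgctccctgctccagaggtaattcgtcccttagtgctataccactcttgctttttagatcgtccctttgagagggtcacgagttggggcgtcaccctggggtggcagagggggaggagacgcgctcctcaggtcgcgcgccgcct
Panx1, chr9:15045479-15045728, minus strand: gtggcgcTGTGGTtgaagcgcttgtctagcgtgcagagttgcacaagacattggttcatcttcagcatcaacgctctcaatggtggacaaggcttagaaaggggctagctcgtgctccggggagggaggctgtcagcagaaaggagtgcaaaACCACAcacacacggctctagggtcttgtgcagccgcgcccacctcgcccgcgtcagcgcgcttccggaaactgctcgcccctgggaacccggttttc

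A hexamer was present 220 bases before the downstream P2rx7 start and absent from the window of the upstream start. The P2rx4 window held 1, at 240 bases before the start, and the Panx1 window held 2, at 243 and 98 bases. Over the 6 measured genes, 6 of 9 windows held at least 1 hexamer, against 38% of all 32851 windows of this length in the table. A hexamer is a match of letters and not a measured binding site, and Runx3 binding was not part of these files. No order of the 3 genes is read from these matches.

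The ATP-gated channels were compared first. P2rx7 read 5.70, 5.81 and 5.78 in Runx3-/- replicates 1, 2 and 3, against 3.77, 3.77 and 4.19 in WT replicates 1, 2 and 3. The lowest Runx3-/- array lay 1.51 above the highest WT array, and the Runx3-/- arrays spanned only 0.11, while the WT arrays spanned 0.43, with WT replicate 3 above the others. P2rx7 was 3.62-fold higher in Runx3-/- cells, a difference of 1.86 ± 0.13 (SE, 3 mice per genotype; the 95% interval runs from 1.56 to 2.15). It was the 18th largest rise among the 9925 genes. The WT signal stood near the array median and the Runx3-/- signal well above it.

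The P2rx7 probe set is annotated to all 5 curated RefSeq transcripts of the gene. It therefore does not separate the transcripts that begin at the upstream start from those that begin at the downstream start, and which of these accounted for the difference was not measured. With any 1 array left out the P2rx7 difference stayed between 1.78 and 2.0.

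P2rx4 encodes a channel that opens at lower ATP than P2X7. It read 5.59, 5.92 and 5.83 in Runx3-/- cells, against 5.82, 6.00 and 5.77 in WT cells. The groups overlapped, and the difference was -0.084 ± 0.12 (SE) with a 95% interval from -0.35 to 0.18, given as a description. Without Runx3-/- replicate 1 the P2rx4 difference turned to 0.011. The remaining P2X channel genes, P2rx1, P2rx2, P2rx3, P2rx5 and P2rx6, stayed below the array median in every array (2.74 to 3.10 in Runx3-/- cells and 2.59 to 3.10 in WT cells) and were not tested. P2rx7 and P2rx4 were thus the P2X genes with a signal above the median in these cells.

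**Figure D1:**
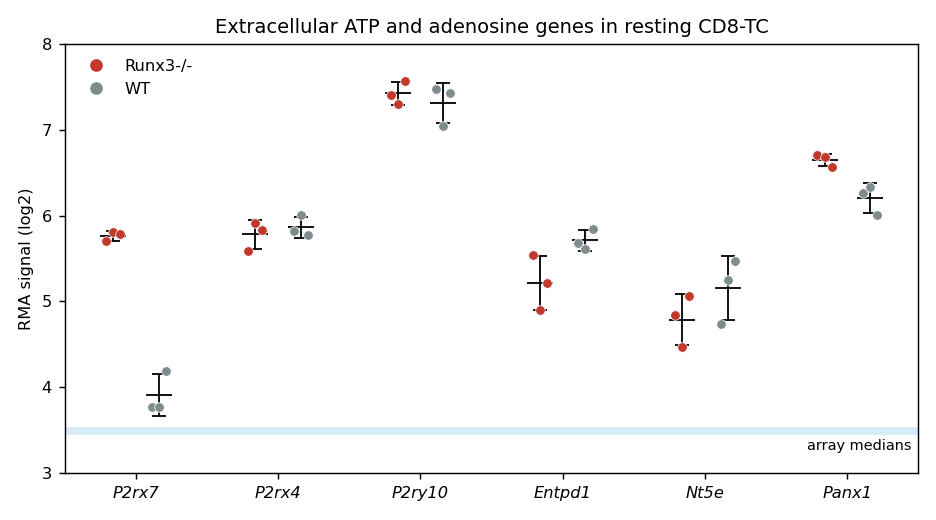
Log2 RMA signal (vertical axis) of the 6 measured genes (horizontal axis) in each Runx3-/- (red) and WT (grey) array; lines give mean ± SD over 3 mice, and the pale band spans the array medians. P2rx7 lies near 5.77 in Runx3-/- and 3.91 in WT cells, Panx1 and Entpd1 do not overlap between genotypes but lie closer together, and the other genes overlap; heights of different genes come from different probes and are not comparable.

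Panx1 encodes pannexin 1, a channel through which ATP leaves the cell. It read 6.70, 6.68 and 6.57 in Runx3-/- cells, against 6.26, 6.34 and 6.01 in WT cells. All Runx3-/- arrays lay above all WT arrays, by 0.23 between the nearest, and the difference was 0.45 ± 0.11 (SE), or 1.36-fold, with a 95% interval from 0.19 to 0.70. Panx1 was called higher over all 6 arrays, but was no longer called when an array was left out from either group, with WT replicate 2 (0.51) as the exception. It was 0.42, 0.43 and 0.49 without Runx3-/- replicates 1, 2 and 3, and 0.48 and 0.35 without WT replicates 1 and 3. It also fell short of a fold of 1.5.

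The genes of the ectoenzyme chain gave differences below 0, smaller in size than that of P2rx7. Entpd1, which encodes CD39, read 5.54, 4.90 and 5.21 in Runx3-/- cells, against 5.68, 5.61 and 5.84 in WT cells. The groups did not overlap, but the gap between the nearest arrays was only 0.0725, and Runx3-/- replicate 1 came close to the WT arrays. The difference was -0.50 ± 0.16 (SE), with a 95% interval from -0.86 to -0.13, and Entpd1 was not called. Without Runx3-/- replicate 1 it was -0.66 and was called.

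Nt5e, which encodes CD73, read 4.84, 4.47 and 5.06 in Runx3-/- cells, against 4.74, 5.25 and 5.47 in WT cells. The groups overlapped, with WT replicate 1 below Runx3-/- replicates 1 and 3. The difference was -0.36 ± 0.21 (SE), and its 95% interval from -0.84 to 0.11 includes no change. The spread among WT arrays (0.73) was about as wide for Nt5e as the spread among Runx3-/- arrays (0.59). Neither enzyme of the chain was thus called, and both point estimates were below 0.

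P2ry10 encodes a lymphocyte receptor of the P2Y family that responds to lysophosphatidylserine rather than to ATP. It read 7.40, 7.30 and 7.57 in Runx3-/- cells, against 7.47, 7.05 and 7.43 in WT cells. The groups overlapped, and the difference of 0.11 ± 0.14 (SE, 95% interval from -0.20 to 0.42) turned to -0.027 without WT replicate 2. Its relative P2ry10b gave -0.15 ± 0.16 (SE) and did not pass (limma adjusted p = 0.592).

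Of the 6 measured genes, 2 were called higher, 0 were called lower and 4 were not called, where 11.6% of all genes were called, 5.63% higher and 6.01% lower. Groups did not overlap for 3 of 6, with P2rx7 and Panx1 above and Entpd1 below, where 17.4% of all genes had groups apart above and 16.2% below. At a fold of 1.5 and an unadjusted p of 0.05, the cutoffs of the methods, 1 of the 6 (P2rx7) was called, where 8.08% of all genes were. Here the p came from limma after the median filter, whereas the methods used Partek software and also required signal above background. The median difference of the 6 genes was 0.012. As the genes were listed with these results known, nothing is read from these shares.

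Other cells of the spleen express several of these genes, and markers of some of those cells differed between the genotypes. All 11 tested B cell markers fell, with mean levels of 4.15 to 4.36 in Runx3-/- arrays and 6.22 to 6.98 in WT arrays. All 13 tested macrophage and monocyte markers fell, with mean levels of 4.11 to 4.72 in Runx3-/- arrays and 6.83 to 7.01 in WT arrays, while Cd14 was below the filter. These counts include markers that passed the filter through WT arrays alone and had to differ. Examples are Ebf1 of the B cell markers (3.10, 2.70 and 2.91 in Runx3-/- cells) and Mertk of the macrophage markers (2.98, 3.01 and 3.37). B cells and macrophages are known to carry CD39, and these values are set beside the Entpd1 difference as a description. The directions were not shared by all genes and markers. Of 10 tested dendritic cell markers 1 fell and 9 were not called. Their mean levels overlapped, at 5.92 to 6.72 in Runx3-/- arrays and 6.49 to 7.26 in WT arrays. Of 3 tested natural killer cell markers 1 rose and 2 were not called (4.11 to 5.10 in Runx3-/- arrays and 3.66 to 3.77 in WT arrays). P2rx7 was higher while the macrophage markers fell, and the Entpd1 estimate was below 0 while 6 of 8 tested regulatory T cell markers rose. The part of any of these cells was not tested. In bulk RNA, fewer cells of a type and less RNA per cell cannot be told apart.

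P2rx7 differed in the other direction, as did several markers of regulatory T cells. Of 8 tested regulatory T cell markers 6 rose and 0 fell, with mean levels of 5.48 to 5.74 in Runx3-/- arrays and 4.02 to 4.09 in WT arrays, and Lrrc32 was below the filter. Foxp3, the factor that defines regulatory T cells, read 5.05, 5.0 and 5.43 in Runx3-/- cells, against 3.39, 3.25 and 3.29 in WT cells. The WT signals lay below the array median, so that Foxp3 passed the filter through Runx3-/- arrays alone and had to differ. The count of rises and the mean levels include Foxp3. The mean levels also include Ikzf4 (3.26, 3.19 and 3.24 in WT cells), which passed the filter in the same way but was not called. Il2ra and Ctla4 lay below the array medians in WT replicates 1 and 2, and read 3.47 and 3.46 in WT replicate 3. Regulatory T cells are known to carry P2X7, and most of them carry CD4 and not CD8. Whether such cells were among those taken on anti-CD8 beads was not measured. Their part in the P2rx7 difference was not tested. Of 2 tested helper T cell markers 1 rose, Cd4 (2.57 ± 0.12, SE, limma adjusted p = 2.36e-05), a gene that Runx proteins are known to silence in CD8+ T cells, whereas Zbtb7b gave 0.023 (adjusted p = 0.916) and Cd40lg was below the filter. Of 5 tested naive T cell markers 2 rose (9.47 to 9.61 in Runx3-/- arrays and 8.83 to 9.18 in WT arrays), while 0 of 6 memory and effector markers passed (7.21 to 7.74 in Runx3-/- arrays and 6.95 to 7.98 in WT arrays).

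**Figure D2:**
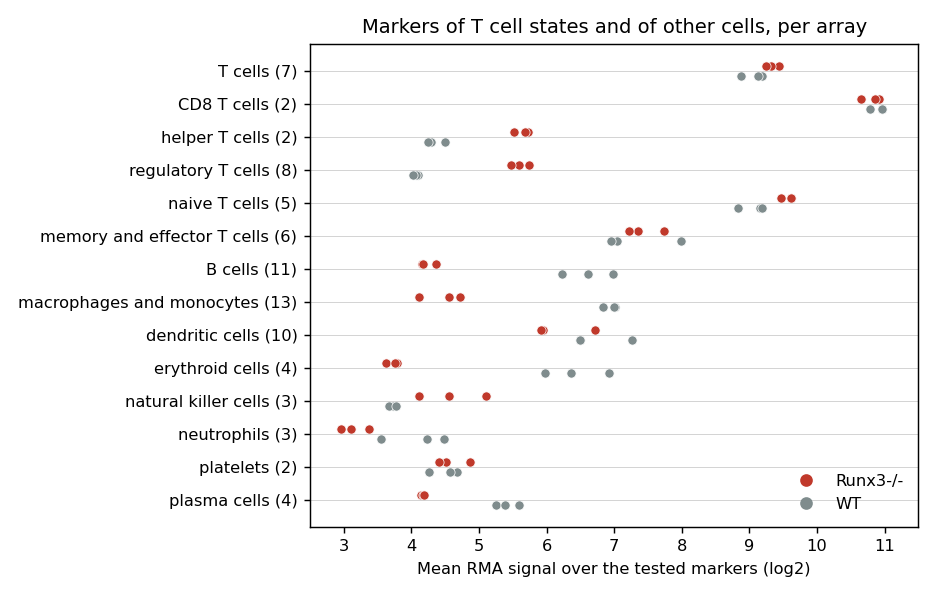
Mean RMA signal on the log2 scale (horizontal axis) over the tested markers of each T cell state or other cell (vertical axis, number of tested markers in brackets), with a point for each Runx3-/- (red) and WT (grey) array. The B cell, macrophage, erythroid and plasma cell points lie lower in Runx3-/- arrays, although only 2 of 4 tested plasma cell markers were called lower. Slc4a1 and Car1 (erythroid) and Mzb1 (plasma cells) passed the filter through WT arrays alone and had to differ. The regulatory T cell points lie at 5.48 to 5.74 in Runx3-/- and 4.02 to 4.09 in WT arrays, and include Foxp3 and Ikzf4, which passed the filter through Runx3-/- arrays alone. The CD8 T cell points overlap.

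The genes next to P2rx7 and Panx1 were examined to see whether the differences were shared along the chromosome. On either side of P2rx7, Atp2a2 (-0.028 ± 0.12, SE, limma adjusted p = 0.905), P2rx4 and Camkk2 (-0.12 ± 0.089, adjusted p = 0.44) did not pass, and Ift81 was below the filter (3.11 to 3.21 in Runx3-/- and 2.93 to 3.03 in WT arrays). No tested neighbour of P2rx7 was thus called, and P2rx7 itself was listed with these results known.

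Panx1 gave another picture, since the next 2 genes on 1 side rose more than Panx1. Izumo1r, which encodes folate receptor 4 of regulatory T cells, read 7.33, 6.87 and 7.09 in Runx3-/- cells, against 4.48, 4.53 and 3.68 in WT cells. It belongs to the regulatory T cell markers counted above and was 7.29-fold higher (2.87 ± 0.23, SE, limma adjusted p = 0.000192). Gpr83, which encodes a receptor known from regulatory T cells, read 7.43, 7.27 and 7.36 in Runx3-/- cells, against 5.75, 6.07 and 3.81 in WT cells.

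The Gpr83 difference was 2.14 ± 0.50 (SE, limma adjusted p = 0.0293), and WT replicate 3 was low for Panx1, Izumo1r and Gpr83 alike. Low values in that array were not particular to these genes. Of the WT arrays it also had the lowest mean level over T cell markers (8.87) and naive T cell markers (8.83). For memory and effector markers it had the highest (7.98). Without that array the Gpr83 difference was 1.44 (adjusted p = 0.000349), whereas without Runx3-/- replicates 1, 2 or 3 its adjusted p was 0.0712, 0.0841 and 0.0925 with differences of 2.10, 2.18 and 2.14. On the other side Hephl1 (2.58 to 2.74 in Runx3-/- and 2.62 to 2.70 in WT arrays) and Vstm5 (2.49 to 2.66 in Runx3-/- and 2.60 to 2.71 in WT arrays) were below the filter. Whether the Panx1 difference is related to that of its neighbours was not tested.

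**Figure D3:**
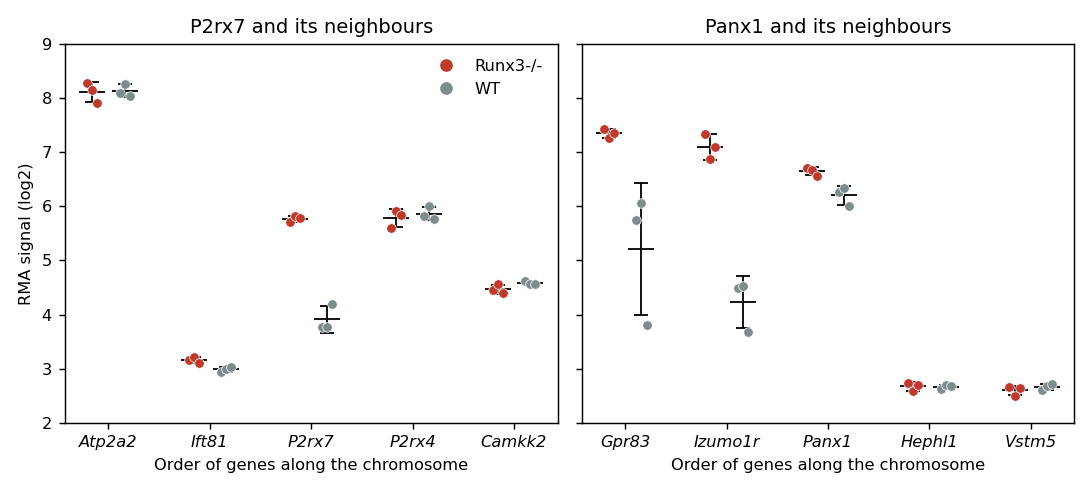
Log2 RMA signal (vertical axis) of P2rx7 (left) and Panx1 (right) and of the 2 protein-coding genes on either side in chromosomal order (horizontal axis, not to distance), for each Runx3-/- (red) and WT (grey) array; lines give mean ± SD over 3 mice. The tested neighbours of P2rx7 are not called, whereas Gpr83 and Izumo1r beside Panx1 are, like Panx1, higher in Runx3-/- arrays.

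The wider system was then counted over 106 further genes, listed by function but also with earlier results of these arrays known, of which 92 had a probe set, 36 were below the filter and 56 were tested. Of these 56, 4 rose, 6 fell and 46 did not pass, a share of 17.9% called against 11.6% of all genes, with a median difference of -0.038. Of the 6 falls, 3 (P2ry13, Il1b and Il18) passed the filter through WT arrays alone and had to differ, so that nothing is read from that share. Among the P2Y receptors 1 of 5 tested genes fell and 0 rose. P2ry13, a receptor for ADP, read 3.44, 3.19 and 3.38 in Runx3-/- cells, against 4.90, 4.95 and 4.16 in WT cells.

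The Runx3-/- signals of P2ry13 lay below the array median, and the groups did not overlap. P2ry14, a receptor for UDP-glucose, gave -0.24 ± 0.20 and P2ry6, a receptor for UDP, gave -0.27 ± 0.17 (SE, adjusted p = 0.481 and 0.351), and both overlapped between groups. Lpar6, which reads lysophosphatidic acid, gave 0.032 ± 0.086 (SE). The ADP and ATP receptor genes P2ry1, P2ry2 and P2ry12, with P2ry4 and Gpr17, stayed between 2.52 and 3.09 in Runx3-/- arrays and between 2.66 and 3.17 in WT arrays, below the filter.

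Of 9 tested nucleotidases and phosphatases, 1 rose and 2 fell. Entpd4 and Entpd5, relatives of CD39 that act inside the cell on nucleoside diphosphates, went in opposite directions. Entpd4 read 6.96, 7.43 and 7.18 in Runx3-/- cells, against 6.12, 6.56 and 6.53 in WT cells (0.78 ± 0.16, SE, limma adjusted p = 0.0172). Entpd5 read 6.62, 6.30 and 5.62 in Runx3-/- cells, against 7.22, 7.10 and 7.12 in WT cells (-0.97 ± 0.22, SE, adjusted p = 0.0279). Entpd5 was lowest in Runx3-/- replicate 3, and its WT arrays were close together.

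Both calls depended on single arrays. Entpd4 did not pass without Runx3-/- replicates 2 or 3 or WT replicate 1 (0.66, 0.79 and 0.64, limma adjusted p = 0.0596, 0.06 and 0.0501). Entpd5 did not pass without Runx3-/- replicate 2 or WT replicates 1 or 2 (-1.03, -0.93 and -0.99, adjusted p = 0.0683, 0.0898 and 0.0612).

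Alpl, the tissue-nonspecific alkaline phosphatase, which can strip phosphates from extracellular nucleotides, read 3.11, 3.23 and 3.64 in Runx3-/- cells, against 4.86, 4.5 and 4.5 in WT cells. It was 2.45-fold lower (-1.29 ± 0.16, SE, limma adjusted p = 0.0019). Acpp, an acid phosphatase that can hydrolyse AMP, gave -0.53 ± 0.20 and Ada, adenosine deaminase, gave -0.38 ± 0.11 (adjusted p = 0.129 and 0.0591), and neither passed.

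Adenosine handling inside the cell held 1 rise among 7 tested genes. Adk, adenosine kinase, which returns adenosine to AMP, read 6.51, 6.83 and 7.29 in Runx3-/- cells, against 5.72, 6.09 and 5.69 in WT cells. It was 2.06-fold higher (1.04 ± 0.20, SE, limma adjusted p = 0.0137), but did not pass without WT replicate 1 (0.98, adjusted p = 0.0512). The nucleoside transporters Slc29a1, Slc29a3 and Slc28a2 gave -0.17, -0.12 and 0.19 and did not pass.

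No gene passed among the 4 tested genes of NAD metabolism and ADP-ribosylation or the 6 tested nucleotide release genes in limma, with 1 and 3 at an unadjusted p under 0.05. Art4, an ADP-ribosyltransferase relative known from red cells, gave 0.23 ± 0.13, and Nampt, which makes the precursor of NAD, gave -0.34 ± 0.15 (SE, limma adjusted p = 0.312 and 0.177). Bst1, which encodes an enzyme of the ADP-ribosyl cyclase family, and Art1, Art3 and Art5 stayed below the filter with Sarm1, between 2.70 and 3.06 in Runx3-/- arrays and between 2.70 and 3.17 in WT arrays. Of the pannexins, Panx2 and Panx3 were also below it, which left Panx1 as the pannexin above the array median.

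Among the effectors linked to P2X7, 1 of 12 tested rose and 2 fell, a share of 25% called against 11.6% of all genes, and both falls passed the filter through WT arrays alone. The proteases Adam10 and Adam17, which cut surface receptors after P2X7 opens, gave -0.029 and -0.017. Cd27, a costimulatory receptor, read 8.43, 8.65 and 8.29 in Runx3-/- cells, against 8.0, 7.84 and 7.83 in WT cells (0.57 ± 0.12, SE, limma adjusted p = 0.0174). It did not pass without Runx3-/- replicate 2 (0.47, adjusted p = 0.0547) or WT replicate 2 (0.54, adjusted p = 0.0566). Casp1, the protease that matures interleukin 1 beta and interleukin 18, gave 0.45 ± 0.15 and Gsdmd, the pore protein it cleaves, gave 0.40 ± 0.12 (adjusted p = 0.09 and 0.0703), and the inflammasome sensor gene Nlrp3 was below the filter.

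Those falls were the cytokine genes Il1b and Il18. Il18 read 2.90, 3.37 and 3.19 in Runx3-/- cells, against 3.93, 3.69 and 4.32 in WT cells. Il1b read 2.83, 3.03 and 3.05 in Runx3-/- cells, against 3.91, 3.34 and 3.61 in WT cells. Both lay below the array median in all Runx3-/- arrays, and the groups did not overlap.

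Neither call was stable: Il18 did not pass without Runx3-/- replicates 1 or 3 or WT replicate 1 (-0.70, -0.84 and -0.85), and with 1 array left out Il1b passed only without WT replicate 2 (-0.80). P2ry13, Alpl, Il1b and Il18 were lower in Runx3-/- arrays, as were all 13 tested macrophage markers (4.11 to 4.72, against 6.83 to 7.01 in WT arrays). Any gene that fell shares this direction, as Entpd5 and Pde7a do. The part of macrophages was not tested.

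The cAMP arm below adenosine receptors held 1 rise and 1 fall among 13 tested genes. Adcy6, an adenylyl cyclase that makes cAMP, read 6.04, 6.75 and 6.34 in Runx3-/- cells, against 5.08, 4.63 and 4.38 in WT cells. It was 3.21-fold higher (1.68 ± 0.22, SE, limma adjusted p = 0.00225). Pde7a, a phosphodiesterase that breaks cAMP down, read 7.31, 7.64 and 7.43 in Runx3-/- cells, against 8.04, 8.22 and 8.18 in WT cells (-0.68 ± 0.11, SE, adjusted p = 0.00733).

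Neither call was lost when an array was left out. The other cyclases Adcy3 and Adcy7 gave 0.037 and 0.12, and the phosphodiesterases Pde3b, Pde4b and Pde4d gave 0.19, -0.016 and 0.31, with none past the threshold. The subunit genes Prkacb and Prkar1a of the cAMP-dependent kinase gave -0.047 and -0.14 and also did not pass.

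**Figure D4:**
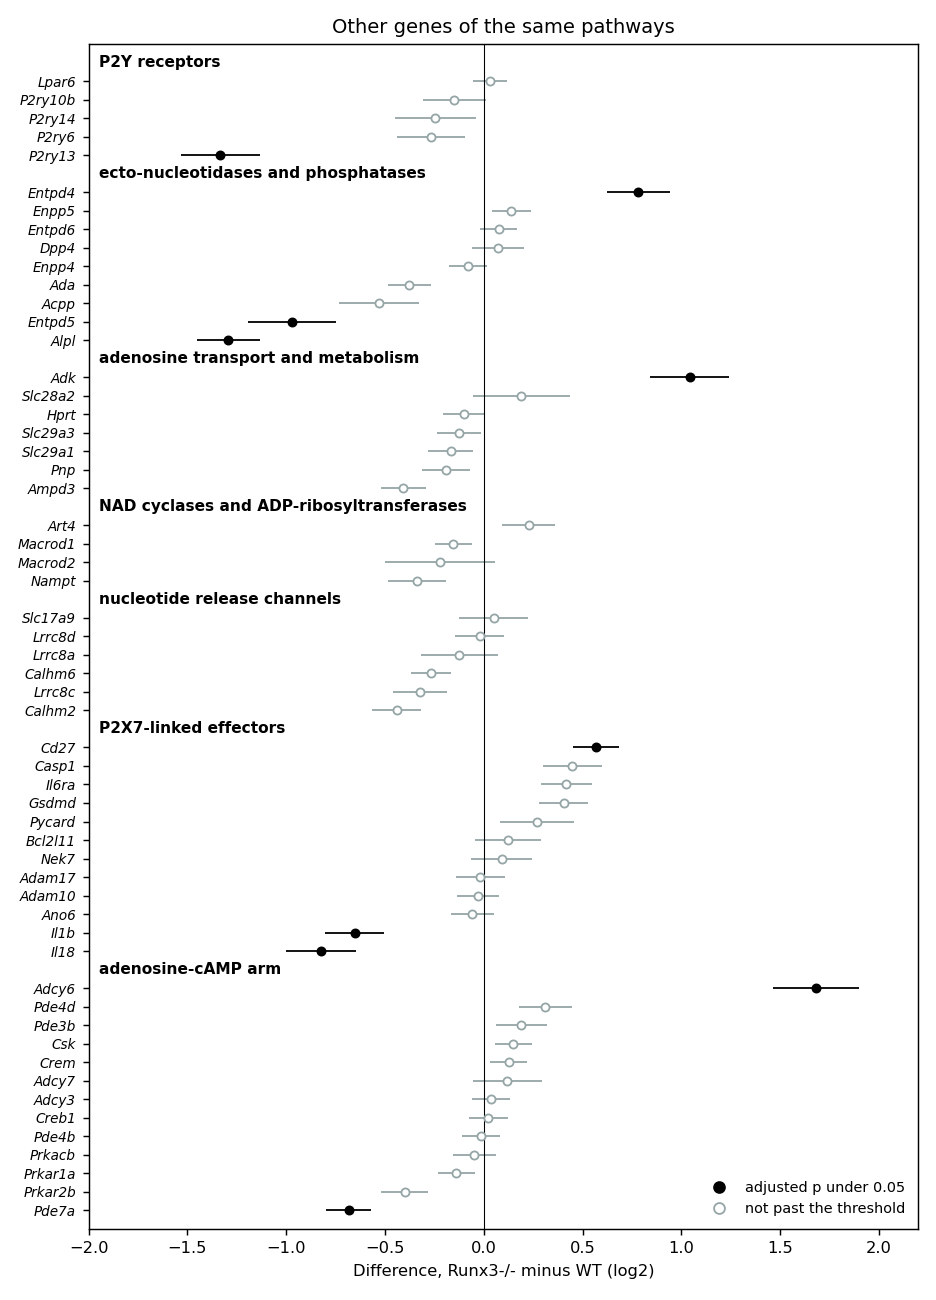
Difference between Runx3-/- and WT cells on the log2 scale (horizontal axis, Runx3-/- minus WT, bars are the SE from limma, n = 3 mice per group) for the 56 tested genes of the wider system (vertical axis), grouped by function, with filled points for an adjusted p under 0.05. The filled points are Entpd4, Adk, Cd27 and Adcy6 to the right of 0 and P2ry13, Entpd5, Alpl, Il1b, Il18 and Pde7a to the left.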

How the data were processed

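Per the submitters' notes, the authors ran RMA with a correction for probe GC content in Partek Genomics Suite, and deposited 1 log2 signal per probe set and array. That the scale is log2 follows from the range of values. Software versions and genome build: not given in the sources used here. GEO's platform annotation paired 21789 of 35399 probe sets with 1 gene, 1621 with several (not named here), and did not list 11989 (unnamed here). A gene was tested when a single-gene probe set reached the array's median (the 50th percentile) in at least 1 array, and the brightest such probe set stood for it.

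Differences are Runx3-/- minus WT, fitted with limma (version 3.58.1, R 4.3.3) over 9925 genes, two-sided, without covariates, and adjusted by Benjamini-Hochberg at 0.05. Code was tested on simulated data. Groups came from sample titles, with 3 mice each, and this number of arrays limits the precision. Promoter windows and gene order came from RefSeq (GRCm38.p6).

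The members and lists were chosen with earlier results of these data known. Named are the listed genes, up to 4 called genes per wider list, relatives of members, neighbours of called members, and Runx3, Cd4, Foxp3, Cd8a and Cd3e; not-called genes of the wider lists are also named as examples. Alternatives changed normalization, filter, arrays, block, weights, variance moderation and trend, call rule and features.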

Additional observations from a re-analysis of the deposited data

How the results depend on the processing

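The P2rx7 difference lay between 1.78 and 2.0 over the 16 alternatives that gave an estimate, a description, since the gene was listed with these arrays known. The number of listed genes called was 2 over all arrays and between 1 and 2 with any 1 array left out. It was 1 without moderation of variances, 1 at the fold and p of the methods and 1 over all probe sets, P2rx7 alone in each case. The 1155 genes called over all arrays became 620 to 922 with 1 array left out (632 without Runx3-/- replicate 2, 625 without Runx3-/- replicate 3 and 620 without WT replicate 1), 182 without moderation and 575 over all probe sets without annotation or filter. The 10 genes of the wider lists became 6 to 10 with 1 array left out (6 without Runx3-/- replicate 2 and 6 without WT replicate 1), 6 with the filter at the 75th percentile, where P2ry13, Alpl, Il1b and Il18 were lost, and 3 over all probe sets. Without moderation limma called 0 of them, with 17 at an unadjusted p under 0.05. Signs turned for P2rx4 (-0.15 to 0.011 with 1 array left out, above 0 without Runx3-/- replicate 1), P2ry10 (-0.027 to 0.19, below 0 without WT replicate 2) and Runx3 (-0.012 to 0.28, below 0 without Runx3-/- replicate 3), none of which was called. Replicate numbers were not taken to pair the mice, since only number 1 had a correlation of deviations across genes above 0.1 (0.18, with 0.032 and -7.91e-05 for numbers 2 and 3). With the replicate block 1085 genes, the same 2 listed genes and 11 genes of the wider lists were called, without Il1b (adjusted p = 0.0605). Fewer arrays also lower the precision. No detection call was used, so that signals near the array median may be background.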
